A study of Mus musculus with 6 samples.

Results

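Transporters and metabolic enzymes of the proximal tubule were followed in single-cell RNA counts of obstructed mouse kidneys. The set held 35 genes, given by name, of the 31276 genes counted, and all 35 were matched by symbol in each of the 6 libraries. The libraries came from kidneys of C57BL/6 mice, taken 7 days after unilateral ureteral obstruction (UUO), an operation that ties off 1 ureter and leads to fibrosis. Per the labels, 3 mice had been given SH045 and 3 the vehicle, with 1 kidney per library, and by its title the study concerns inhibition of the cation channel TRPC6. Every library was from an obstructed kidney, so no comparison here contains a healthy kidney. The contralateral control kidneys that the design also names were not analysed here.

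The proximal tubule takes back most of the glucose, amino acids, phosphate, bicarbonate and filtered protein from the primary urine, and secretes organic anions and drugs. It pays for this work mainly by oxidising fatty acids, and it also makes glucose, creatine precursors and arginine. After injury, proximal cells are known to switch on Havcr1 (kidney injury molecule 1), a surface receptor that is very low in healthy tubule, while they lose transporters and enzymes. The genes followed here cover sodium-coupled and exchange transporters (Slc genes), the endocytic receptors Lrp2 and Cubn, peptidases, metabolic and detoxifying enzymes, and the secreted proteins Kap, Spp2 and Gpx3.

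The libraries held 25978 barcodes, with 21186872 to 32256602 UMIs (unique molecules) each. After filters on genes, mitochondrial UMIs and doublets, 22400 cells remained, from 3249 to 4052 by library. SH045 1 and SH045 2 shared 52 barcodes, while other pairs shared 6 to 20, and results are given without the shared barcodes where leaving them out changed a call. Clusters were named from markers that include neither the 35 genes nor Havcr1. The proximal population was the union of 3 clusters with 2983 cells, of which clusters 9 and 12 (1145 and 530 cells) were proximal-tubule-like and cluster 10 (1308 cells) was injured-tubule-like.

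Summed over 20 proximal markers such as Slc17a3 and Napsa, cluster 9 stood at 12607 ± 1292, cluster 12 at 18048 ± 1337 and cluster 10 at 6052 ± 439 CPM (UMIs of a gene per 1000000 UMIs of these cells in a library, SD, n = 6 libraries). Thick ascending limb cells stood at 859.6 ± 203 CPM for the same markers and macrophages at 194 ± 49.8 CPM. The injured-like cluster carried these markers at a lower level than clusters 9 and 12 and above the other classes named here. The same 20 markers served to name the clusters, so this order describes the classes and is no separate support for their names. Cells with at least 2 Havcr1 UMIs are called Havcr1-positive below and cells with 0 Havcr1-negative, which gave 1126 and 1634 cells, and 223 cells with 1 UMI stayed out of both. Havcr1-positive cells were 66.6% of cluster 10, 16.9% of cluster 9 and 11.7% of cluster 12.

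The 2 proximal-like clusters divided the gene set between them, which is given as a description without a test because clusters of the same cells are compared. The 13 genes higher in cluster 9 included the glucose carrier Slc5a2, the lactate carrier Slc5a12, the creatine precursor enzyme Gatm and the secreted phosphoprotein Spp2. The 22 genes higher in cluster 12 included the exchanger of acidic amino acids Slc7a13, the androgen-regulated kidney protein Kap, the organic anion carrier Slc22a6 and the gluconeogenic enzyme Pck1. Slc7a13 averaged 665 ± 235 CPM in cluster 12 and 4.33 ± 3.87 CPM in cluster 9 (SD, n = 6), and Kap 37747 ± 10339 CPM against 1598 ± 457 CPM. In the other direction, Slc5a12 averaged 332 ± 80.4 CPM in cluster 9 and 19.2 ± 15.5 CPM in cluster 12, and Spp2 665 ± 182 CPM against 59.3 ± 37.3 CPM. Slc34a1, the main phosphate carrier of the brush border, was nearly level at 2682 ± 510.4 CPM and 2723 ± 1012 CPM. In textbook terms, Slc5a2 belongs to the first parts of the proximal tubule and Slc7a13 to its straight last part. Of the 35 genes, 30 were lowest in the injured-like cluster 10.

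Havcr1-positive cells carried less of nearly the whole gene set than Havcr1-negative cells of the same kidney. The 35 genes together made up 6.91, 5.87 and 4.8% with SH045 and 8.5, 7.23 and 5.65% with Vehicle of the UMIs of Havcr1-negative cells. In Havcr1-positive cells they made up 2.98, 2.44 and 2.2% with SH045 and 3.93, 4.24 and 2.47% with Vehicle. All 6 libraries were lower in the positive cells, with ratios of negative to positive from 1.71 to 2.4, and the 2 ranges did not overlap. Gpx3, a secreted glutathione peroxidase, and Kap together gave 66.6% of the set's UMIs in negative cells, and without both the ratios ran from 1.82 to 2.63. The summed level stepped down with each higher class of Havcr1 UMIs in 6 of 6 libraries. It averaged 6.49 ± 1.32% at 0, 5.27 ± 1.56% at 1, 3.95 ± 1.15% at 2 to 4 and 2.75 ± 0.775% at 5 or more UMIs (SD, n = 6).

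**Figure D1:**
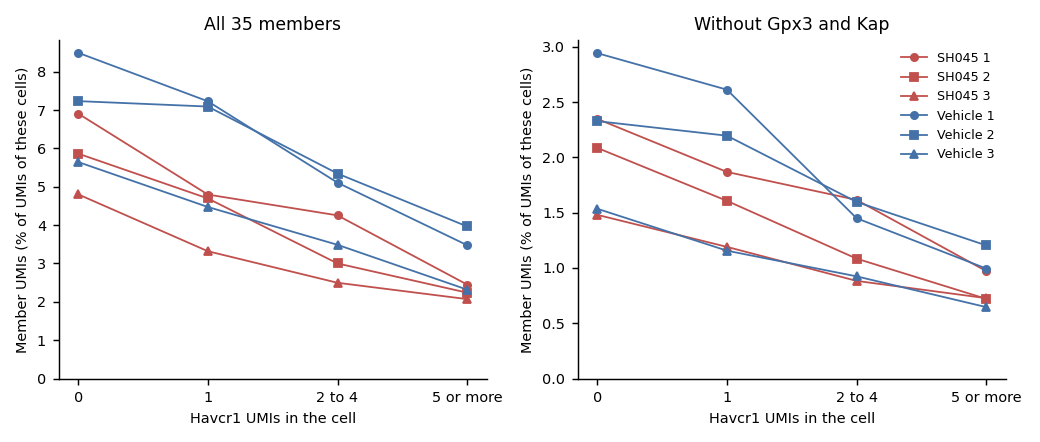
Member UMIs as a percentage of all UMIs (vertical axis) in proximal-population cells with 0, 1, 2 to 4 and 5 or more Havcr1 UMIs (horizontal axis), for all 35 genes (left) and without Gpx3 and Kap (right). Each line is 1 library, red for SH045 and blue for Vehicle, and the left-hand lines fall at every step in 6 of 6 libraries.

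Tested gene by gene with the library as a block, 33 of the 35 genes fell and 0 rose in Havcr1-positive cells (edgeR quasi-likelihood test, Benjamini-Hochberg adjusted p at most 0.05 over 9920 genes). Among all genes tested, 36.2% were called, 17.9% lower and 18.3% higher. The median log2 change was -1.62 for the set and 0.008 for all genes. Of the 35 genes, 31 were lower in 6 of 6 libraries, as were 8.54% of all genes tested. For 17 the highest positive library lay below the lowest negative one, as it did for 2.52% of all genes tested. With a mitochondrial limit of 20% there were 29 calls, all among the 33, and the median was -1.35, with Ggt1, Kap, Slc27a2 and Slc3a1 not called. The 2 classes also differed in depth and in mitochondrial share: the median cell had 7714 UMIs, 5.63% of them mitochondrial, in the positive class and 4942 UMIs and 10.5% in the negative class. With every cell thinned to 2000 UMIs before the split, 30 of the 32 genes tested were called lower, where 27.3% of all genes tested were called, with a median of -1.62. Of these 30, 29 were among the 33, Keg1 was added, and Slc3a1 was tested and not called (log2 change -0.26 ± 0.14 (SE, edgeR adjusted p = 0.165)). The summed level of 7 macrophage markers was 693 to 1688 CPM in negative and 879.9 to 1242 CPM in positive cells, with none of the 7 at 0, and these ranges overlapped. Replicates were separate mice per the design. With the library as a block, p-values of this comparison set the mean difference between the classes against its variation among these 6 mice. Those between SH045 and Vehicle set the difference of the groups against the spread between mice within the groups.

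The phosphate carrier and the 3 carriers of sugars and carboxylates were lower in Havcr1-positive cells. Slc34a1 (ENSMUSG00000021490, chr13:55398187-55415592 in GRCm38) stood at 3079, 2719 and 1566 CPM with SH045 and 2393, 2742 and 1832 CPM with Vehicle in Havcr1-negative cells. In Havcr1-positive cells it stood at 1051, 592 and 378 CPM with SH045 and 548, 1313 and 353 CPM with Vehicle. Each positive library was below each negative one, and Slc34a1 fell by 2.12 ± 0.18 (log2 units, SE, edgeR adjusted p = 0.000165). Slc5a2, the high-capacity glucose carrier, was at 626, 641 and 450.3 CPM with SH045 and 403, 576 and 533 CPM with Vehicle in negative and 247, 213 and 160.2 CPM with SH045 and 162, 384 and 121 CPM with Vehicle in positive cells. These ranges did not overlap either, and the fall was 1.62 ± 0.17 (adjusted p = 0.000273) on the log2 scale, as it was 2.19 ± 0.18 (adjusted p = 2.33e-05) for the lactate carrier Slc5a12 and 1.87 ± 0.12 (adjusted p = 6.96e-10) for the dicarboxylate carrier Slc13a3.

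All 4 organic anion carriers were lower in Havcr1-positive cells. Within proximal-like clusters alone, Slc22a30 was called, at -0.95 ± 0.19 (SE, edgeR adjusted p = 0.0014), and the other 3 were not. Their log2 changes there were -0.40 for Slc22a6, -0.25 for Slc22a8 and -0.18 for Slc22a12 (edgeR adjusted p = 0.146, 0.686 and 0.438). Slc22a6 and Slc22a8, the basolateral carriers that load anionic drugs into the cell, fell by 1.93 ± 0.14 (adjusted p = 2.64e-07) and 1.98 ± 0.28 (adjusted p = 0.000908) on the log2 scale (SE, edgeR). Slc22a6 was at 256, 219 and 68.3 CPM with SH045 and 378, 372 and 206 CPM with Vehicle in negative cells and at 99.5, 61 and 38.3 CPM with SH045 and 85.6, 103 and 58.1 CPM with Vehicle in positive cells. The low SH045 3 library overlapped the positive range, while the other negative libraries lay above it. Slc22a12, the urate exchanger, fell by 1.89 ± 0.21 (adjusted p = 0.000412) and Slc22a30 by 2.29 ± 0.16 (adjusted p = 1.39e-09). Slc22a30 has close relatives in its gene family, and how reads shared by such copies were counted is not given in the sources used here.

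Lrp2 and Cubn, the megalin and cubilin receptors that take up filtered protein, both fell. Lrp2 was at 969, 905 and 771 CPM with SH045 and 926, 629.8 and 576 CPM with Vehicle in negative cells and at 524, 343 and 291 CPM with SH045 and 249, 338 and 206 CPM with Vehicle in positive cells. The groups of libraries did not overlap, and Lrp2 fell by 1.55 ± 0.12 (log2 units, SE, edgeR adjusted p = 2.81e-06), close to the 1.33 ± 0.10 (adjusted p = 3.38e-09) of Cubn. Slc4a4, which exports bicarbonate across the basolateral membrane, fell by 1.01 ± 0.07 (adjusted p = 1.64e-09). It was at 1738, 1410.4 and 1162 CPM with SH045 and 987, 990.1 and 1044 CPM with Vehicle in negative cells and 1043, 791 and 687 CPM with SH045 and 544, 726 and 508 CPM with Vehicle in positive cells, and SH045 1 in the positive class lay above Vehicle 1 and Vehicle 2 in the negative class.

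All 5 amino acid transporters fell, by very different amounts. Slc7a13 (ENSMUSG00000041052, chr4:19818725-19842218) was at 111, 64.6 and 113 CPM with SH045 and 448, 247 and 114 CPM with Vehicle in negative cells. In positive cells it was at 19.9, 16.1 and 14.7 CPM with SH045 and 72.6, 48.4 and 28.5 CPM with Vehicle. Only Vehicle 1 in the positive class exceeded the lowest negative library, and Slc7a13 fell by 2.64 ± 0.11 (log2 units, SE, edgeR adjusted p = 5.88e-12). Slc6a19, the apical carrier of neutral amino acids, fell by 2.40 ± 0.13 (adjusted p = 1.4e-10), and the basolateral exchangers Slc7a7 and Slc7a8 by 1.27 ± 0.10 (adjusted p = 4.17e-08) and 1.45 ± 0.12 (adjusted p = 2.54e-08). Slc3a1, the heavy chain of the cystine carrier, had the smallest called change of the set, at -0.39 ± 0.08 (SE, edgeR adjusted p = 0.00054). Its libraries overlapped, from 187 to 275 CPM in negative and from 193 to 231 CPM in positive cells, and it was lower in 5 of 6.

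Since the genes moved together, their promoters were searched for letters bound by HNF4 (CAAAGTCCA or CAAAGGTCA) and HNF1 (GTTAATNAT), transcription factors of the proximal tubule, on both strands of the 250 bases before each start in the RefSeq promoter table (GRCm38.p6). The table held 38 promoters for 29 of the 35 genes. Of these, 1 held the HNF4 letters and 0 the HNF1 letters, against 0.807% and 0.737% of all 32851 promoters. The single match, shown because it lies in the promoter of the least lowered gene among the 33, was in Slc3a1 at chr17:85028283-85028341 on the plus strand, with the matching letters in capitals, 39 bases before the start.
Slc3a1: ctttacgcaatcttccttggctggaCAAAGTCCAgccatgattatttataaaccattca
A match describes letters and not binding, and the search says nothing about factors at other sites.

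Slc13a1 and Keg1 were the 2 genes not called. Slc13a1 (ENSMUSG00000029700, chr6:24088283-24168092), the apical sulfate carrier, was at 1525, 1210.4 and 1194 CPM with SH045 and 1567, 1818 and 1187 CPM with Vehicle in negative cells. In positive cells it was at 1740.4, 1128 and 1327 CPM with SH045 and 2522, 2181 and 1454 CPM with Vehicle. It was lower in only 1 of 6 libraries, SH045 2, the classes overlapped, and its log2 change was 0.02 ± 0.08 (SE, edgeR adjusted p = 0.896). Keg1, a gene of the glycine acyltransferase family, was at 506, 422 and 502 CPM with SH045 and 1217, 623 and 286 CPM with Vehicle in negative and 480.0, 450.2 and 471 CPM with SH045 and 638, 489 and 511 CPM with Vehicle in positive cells. The single Vehicle 1 library stood far above the rest in negative cells, and the log2 change of Keg1 was -0.33 ± 0.24 (SE, edgeR adjusted p = 0.337). Keg1 was called lower with cells thinned to 2000 UMIs, at -0.49 ± 0.13 (SE, edgeR adjusted p = 0.00746), and without Vehicle 3, at -0.52 (edgeR adjusted p = 0.0126).

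Enzymes of glucose, arginine and creatine synthesis fell in full, 4 of 4. Gatm (ENSMUSG00000027199, chr2:122594467-122611303), which makes the creatine precursor guanidinoacetate, was at 1554, 1266 and 830.3 CPM with SH045 and 1228, 763 and 860.1 CPM with Vehicle in negative cells. In positive cells it was at 302, 264 and 147 CPM with SH045 and 109, 189 and 97.6 CPM with Vehicle. The lowest negative library lay above the highest positive one, and Gatm fell by 2.83 ± 0.21 (log2 units, SE, edgeR adjusted p = 0.000109). Ass1, which builds argininosuccinate on the way to arginine, fell by 2.03 ± 0.13 (adjusted p = 2.26e-06), the gluconeogenic gatekeeper Pck1 by 2.08 ± 0.12 (adjusted p = 4.41e-08) and Fbp1, the fructose bisphosphatase of the same pathway, by 1.78 ± 0.13 (adjusted p = 2.31e-06). Pck1 was at 642, 454 and 221 CPM with SH045 and 444, 324 and 212 CPM with Vehicle in negative and 205, 99.2 and 87.2 CPM with SH045 and 87.9, 103 and 56.4 CPM with Vehicle in positive cells, lower in every library, and the ranges did not overlap. Miox opens the inositol ring in proximal cells and fell by 1.95 ± 0.28 (adjusted p = 0.00337). It was at 1022, 875 and 378 CPM with SH045 and 2109, 1239.6 and 712 CPM with Vehicle in negative and 468, 201 and 164 CPM with SH045 and 365, 604 and 141 CPM with Vehicle in positive cells, with overlap through the low SH045 3 library.

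Of the 2 enzymes that activate fatty acids, Acsm2, a medium-chain acyl-CoA synthetase, fell by 1.48 ± 0.11 (adjusted p = 3.89e-07) and Slc27a2, a very-long-chain synthetase and transport protein, by 0.70 ± 0.08 (adjusted p = 1.94e-06) (SE, edgeR). Slc27a2 was at 1277, 958 and 1342 CPM with SH045 and 1839, 1489 and 1014 CPM with Vehicle in negative and 926, 705 and 1165 CPM with SH045 and 1149.8, 889 and 852 CPM with Vehicle in positive cells. It was lower in every library, and the ranges overlapped. Among the peptidases, Dpep1, a dipeptidase of the brush border, fell by 2.51 ± 0.32 (adjusted p = 0.000343), with 82.4, 50.6 and 26.5 CPM with SH045 and 74.9, 57.5 and 26.7 CPM with Vehicle in negative and 13.1, 7.37 and 8.25 CPM with SH045 and 13, 22.4 and 0 CPM with Vehicle in positive cells, which did not overlap. Acy3, which deacylates mercapturates, fell by 1.65 ± 0.21 (adjusted p = 0.00126) and Ggt1, which cleaves glutathione, by 0.93 ± 0.12 (adjusted p = 8.65e-05). The cytochromes Cyp4b1 and Cyp2e1 fell by 1.55 ± 0.15 (adjusted p = 6.85e-05) and 1.40 ± 0.09 (adjusted p = 9.3e-10), the epoxide hydrolase Ephx2 by 0.65 ± 0.10 (adjusted p = 9.35e-05) and Ttc36, a tetratricopeptide repeat protein, by 1.39 ± 0.19 (adjusted p = 0.002). Ephx2 was at 218, 206 and 161 CPM with SH045 and 324, 235 and 168 CPM with Vehicle in negative and 155, 154 and 163 CPM with SH045 and 174, 175 and 145 CPM with Vehicle in positive cells, lower in 5 of 6 libraries, and the ranges overlapped. Ttc36 was at 637, 819.7 and 479 CPM with SH045 and 1630.5, 951 and 557 CPM with Vehicle in negative and 394, 291 and 269 CPM with SH045 and 422, 459 and 299.8 CPM with Vehicle in positive cells, lower in every library, and the ranges did not overlap.

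The secreted proteins held the largest fall of the set. Spp2 (ENSMUSG00000026295, chr1:88406961-88426438) was at 727, 677 and 337 CPM with SH045 and 404, 360.3 and 446 CPM with Vehicle in negative cells. In positive cells it was at 69, 104 and 29.5 CPM with SH045 and 91.7, 129 and 14.5 CPM with Vehicle. The 2 ranges did not overlap, and Spp2 fell by 3.07 ± 0.44 (log2 units, SE, edgeR adjusted p = 0.00358). Gpx3 was at 38013, 31819 and 29598 CPM with SH045 and 41734, 32743 and 33549 CPM with Vehicle in negative cells and at 15541, 14858 and 11311 CPM with SH045 and 22415, 25129 and 14372 CPM with Vehicle in positive cells, again without overlap, and fell by 1.28 ± 0.11 (log2 units, SE, edgeR adjusted p = 4.71e-07). Kap was at 7605, 5981 and 3638 CPM with SH045 and 13803, 16327 and 7565 CPM with Vehicle in negative and 2658, 1385 and 2931 CPM with SH045 and 5672, 4443 and 3539 CPM with Vehicle in positive cells. Its ranges overlapped, with SH045 3 the lowest of the negative libraries, and Kap fell by 1.60 ± 0.28 (log2 units, SE, edgeR adjusted p = 0.00798).

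**Figure D2:**
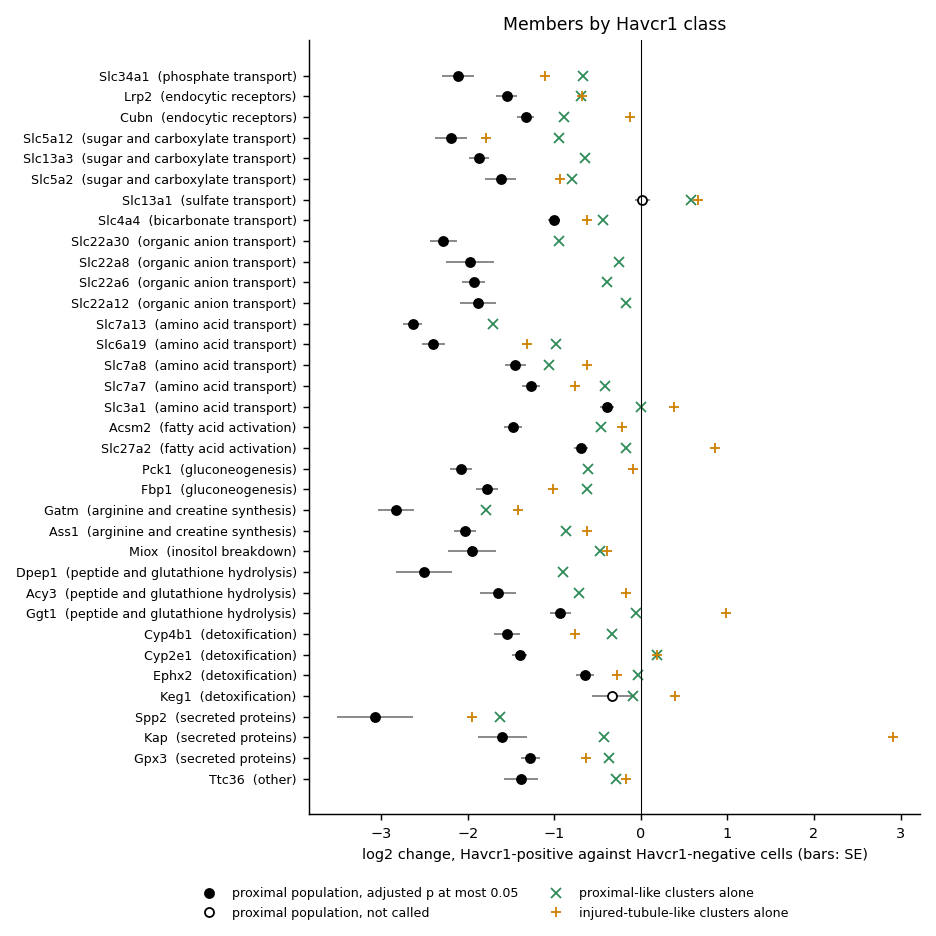
log2 change of each of the 35 genes in Havcr1-positive against Havcr1-negative cells (horizontal axis), by gene and role (vertical axis). Filled circles passed the test and open circles did not, bars are SE, and crosses and plus signs give the change within proximal-like and within injured-tubule-like clusters alone. 33 circles are filled and lie left of 0, and Kap lies at 2.91 within the injured-like cluster.

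The size of the difference depended on which cells were set against each other. Cluster 10 gave 77.4% of the Havcr1-positive and 20.4% of the Havcr1-negative cells. Within proximal-like clusters the summed level of the set averaged 7.59 ± 1.17% in negative and 6.14 ± 1.36% in positive cells. Within the injured-like cluster it averaged 2.61 ± 0.244% in negative and 2.02 ± 0.24% in positive cells (SD, n = 6). Within the proximal-like clusters alone, 19 of 35 genes were called, 18 lower and 1 higher, where 7.45% of all genes tested were called, and the median was -0.48, with as few as 18 positive cells in a library. Slc13a1 was the 1 gene that rose there, by 0.58 ± 0.09 (SE, edgeR adjusted p = 5.32e-05). It was at 1642, 1281 and 1367 CPM with SH045 and 1651, 2005 and 1303 CPM with Vehicle in negative and 2347, 1869 and 1749 CPM with SH045 and 3489.5, 3100.2 and 2306 CPM with Vehicle in positive cells, higher in each library though the ranges overlapped. Within the injured-like cluster alone, a comparison added after the data were seen, 16 of the 28 genes tested were called, 13 lower and 3 higher, where 8.83% of all genes tested were called, with a median of -0.51. Of the 33 genes called lower in all proximal cells, 15 were not called within proximal-like clusters: Acy3, Cyp2e1, Ephx2, Ggt1, Gpx3, Kap, Miox, Slc22a6, Slc22a8, Slc22a12, Slc27a2, Slc3a1, Slc7a7, Spp2 and Ttc36.

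Gatm fell in both kinds of cluster, with log2 changes of -1.79 ± 0.26 (SE, edgeR adjusted p = 0.0117) within proximal-like clusters and -1.42 ± 0.20 (SE, edgeR adjusted p = 0.00145) within the injured-like cluster. Kap went the other way within cluster 10, where it rose by 2.91 ± 0.26 (SE, edgeR adjusted p = 0.0016). It was at 173, 152 and 223 CPM with SH045 and 199, 217 and 242 CPM with Vehicle in the Havcr1-negative cells of that cluster. In its Havcr1-positive cells it was at 1068, 759 and 2629.8 CPM with SH045 and 2833, 1460.5 and 1252 CPM with Vehicle, above every negative library. Ggt1 and Slc27a2 were the other 2 genes that rose within cluster 10, by 0.98 ± 0.22 (SE, edgeR adjusted p = 0.0113) and 0.86 ± 0.19 (SE, edgeR adjusted p = 0.0442). These 3 genes were also among those higher in cluster 12 than in cluster 9.

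Other genes of proximal function moved with the set. The lists were taken whole, though some of their genes are also naming markers of the clusters, and the counts below leave such genes out. For comparison, 17.9% of all genes tested in this fit were called lower and 18.3% higher. Of the other proximal transporters, 16 of 22 tested were lower and 2 higher in Havcr1-positive cells, with a median of -0.94. Fatty acid oxidation genes were lower in 19 and higher in 1 of 26, and genes of gluconeogenesis and fructose use lower in 9 of 10. Slc2a2 and Slc2a5 are counted both there and among the other transporters. Examples are the thiolase Acaa1b at -1.56 and G6pc, the glucose-6-phosphatase, at -2.56 (log2 change). Amino acid and creatine genes were lower in 14 and higher in 1 of 16, and brush border genes lower in 7 and higher in 2 of 11. Proximal transcription factors were lower in 6 and higher in 0 of 11, among them Esrra at -1.09 and Maf at -1.27. Of 10 injury genes that neither define Havcr1-positive cells nor name clusters, 9 were higher and 0 lower.

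A group of cells with few mitochondrial UMIs, most of them from 1 library, differed from other proximal cells in this gene set. At a finer clustering (Leiden resolution 2.0), 333 proximal-population cells formed a cluster with a median of 2.00% mitochondrial UMIs, and 229 of them came from Vehicle 1. In Vehicle 1, 209 Havcr1-negative cells of that cluster were set beside 372 other Havcr1-negative cells of proximal-like clusters, in CPM of non-mitochondrial UMIs. This is a description of clusters within 1 library and has no test. Slc7a13 was at 11.7 against 733, Slc34a1 at 1039 against 3489.5 and Slc27a2 at 571 against 2781. Gatm was higher, at 2374 against 1043, as was Miox at 3348 against 2129 and Ass1 at 3869 against 2661. The other 2 higher genes were Fbp1 and Keg1. Of the 35 genes, 30 were lower and 5 higher in these cells. Leaving them out kept the count of lowered genes at 33 in the Havcr1 comparison, with a median of -1.72.

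Outside the proximal population the gene set was near the floor, with named exceptions. Its summed level was 4.88 ± 1.41% of UMIs in the proximal population and between 0.0646% (collecting duct principal cells) and 0.259% (intercalated cells) on average in 9 other classes. The median gene of the set stood at 0.511% to 1.52% of its own proximal level, depending on the class. Across macrophages the summed level was 0.122, 0.0868 and 0.0704% with SH045 and 0.116, 0.0937 and 0.0693% with Vehicle, which ordered the libraries within each group as the level over all cells did (1.16, 0.956 and 0.595% with SH045 and 1.95, 1.2 and 0.534% with Vehicle). For 24 of the 35 genes the percentage was within 5 times the class median in every class. The other 11 exceeded that in at least 1 class, and they were singled out after their values were seen.

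Dpep1 was higher in fibroblasts than in proximal cells, at 106, 165 and 98.6 CPM with SH045 and 155, 116 and 131 CPM with Vehicle, against 49.5, 31.7, 15.7, 56, 37.5 and 11.3 CPM in the proximal population. Every fibroblast library lay above every proximal one. Ggt1 in thick ascending limb cells reached 224 ± 34.3 CPM (SD, n = 6), 94.4% of its proximal level on average, and 44.6% in distal convoluted tubule. Slc7a8 was spread over the nephron and other cells, at 74.5% of its proximal level in intercalated cells, 60.4% in principal cells and 54.9% in macrophages.

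Macrophages carried Gatm at 447, 324 and 378 CPM with SH045 and 328, 279 and 293 CPM with Vehicle, 57.8% of the proximal level on average. The same cells held Slc13a3 at 36.2% and the cationic amino acid exporter Slc7a7 at 18.3%, while Slc34a1 stood at 0.96% and Kap at 1.4%. Over the 35 genes the macrophage level ran from 0.586% to 57.8% of the proximal level, with a median of 1.1%. Of these genes, 5 stood above 5 times that median. Cyp4b1 in endothelial cells was at 35%, Ttc36 in thick ascending limb at 22.8%, Gatm and Ass1 in dendritic cells at 26.9% and 11.1%. Gpx3 was at 8.33% in intercalated cells and 6.41% in fibroblasts, and Ephx2 reached 8.2% in intercalated cells.

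**Figure D3:**
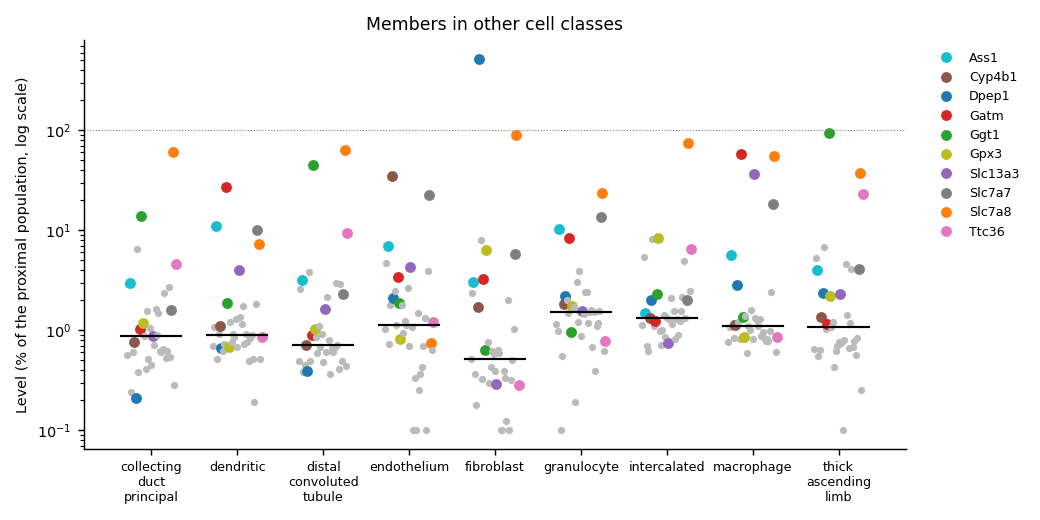
Level of each of the 35 genes in 9 other cell classes (horizontal axis) as a percentage of its level in the proximal population (vertical axis, log scale, mean of 6 libraries, genes at 0 drawn at the lower edge). Coloured points are 10 of the genes named in the text and grey points the rest, black bars are the class medians, and Dpep1 in fibroblasts lies above the dotted line at 100%.

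With SH045, the share of Havcr1-positive cells and the gene set as a whole were not told apart from Vehicle. Havcr1-positive cells were 36.2, 32.8 and 50.6% of the proximal population with SH045 and 21.5, 52.8 and 50.2% with Vehicle. Vehicle 1 was the lowest and Vehicle 2 the highest of all, so the groups overlapped, at 39.9 ± 9.47% and 41.5 ± 17.4% (SD, n = 3 each, two-sided exact permutation p = 0.9, where the smallest possible is 0.1). Cluster 12 was 14.9, 10.1, 8.27, 32, 17, 8.36% of the proximal population in SH045 1 to 3 and Vehicle 1 to 3, in that order, and was largest in Vehicle 1.

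Over all cells summed per library, 0 of 35 genes were called between SH045 and Vehicle by edgeR, while 3.96% of 16323 genes were, 2.73% higher and 1.23% lower. At an unadjusted p under 0.05 there were 4, which cannot be judged because the share of all genes at that cut was not computed. DESeq2 called 1, where it called 11.6% of all genes tested. The log2 change was below 0 for 29 genes, with a median of -0.49 against 0.01 over all genes. Leaving out each library in turn, the median of the set ran from -0.93 without Vehicle 3 to 0.0046 without Vehicle 1. Without the barcodes shared by SH045 1 and SH045 2, 1 gene was called, Slc7a8 (log2 change 0.57, adjusted p = 0.0487 by edgeR), where 4.17% of all genes tested were. In such sums alone, fewer proximal cells and less RNA per cell cannot be told apart. The proximal population held 503, 454 and 387 cells with SH045 and 827, 513 and 299 with Vehicle, and the part of these numbers was not tested. Summed over that population alone, 0 of 11673 genes tested were called by edgeR. Over all cells, Slc7a8 (ENSMUSG00000022180, chr14:54722209-54781946) was the only gene of the set whose groups did not overlap, where 39.3% of all genes tested did not. It was at 53.8, 42.6 and 38.2 CPM with SH045 and 25.2, 26.4 and 25.1 CPM with Vehicle. Its log2 change was 0.57 ± 0.13 (SE, edgeR adjusted p = 0.05), just above the threshold before rounding. The lowest values were those of Slc7a13 at 15, 9.5 and 8.93 CPM with SH045 and 91.5, 25.6 and 8.29 CPM with Vehicle and a log2 change of -2.17 ± 0.87 (SE, edgeR adjusted p = 0.187), and of Cyp4b1 at 55.4, 48.7 and 26.8 CPM with SH045 and 231, 120.4 and 30.1 CPM with Vehicle and -1.80 ± 0.72 (SE, edgeR adjusted p = 0.185). Both were high in Vehicle 1 and Vehicle 2 and overlapped through Vehicle 3. Slc5a12, at 52.6, 38.8 and 26.8 CPM with SH045 and 42.9, 26.9 and 10.6 CPM with Vehicle, and Slc4a4, at 319, 229 and 159 CPM with SH045 and 231, 182 and 100.4 CPM with Vehicle, had values of 0.30 ± 0.49 (SE, edgeR adjusted p = 0.733) and 0.21 ± 0.34 (SE, edgeR adjusted p = 0.732) and overlapped too.

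In Havcr1-negative proximal cells, again 0 of 35 genes were called by edgeR, and so was 0% of the 10020 genes tested. At an unadjusted p under 0.05 there were 8, again without a share of all genes at that cut to judge it by. DESeq2 called 2, Kap lower and Slc7a8 higher, where it called 0.27% of all genes tested. The direction split by gene: Slc7a13, Cyp2e1 and Cyp4b1 had the lowest values and Slc7a8, Slc5a12 and Spp2 the highest. Slc7a13 in the libraries listed above was 96.2 ± 27.3 CPM with SH045 and 269.6 ± 168 CPM with Vehicle (SD, n = 3), a log2 change of -1.62 ± 0.54 (SE, edgeR adjusted p = 0.553), and its highest SH045 library lay just below its lowest Vehicle library. Cyp4b1 was at 335, 324 and 165 CPM with SH045 and 1019, 834 and 392 CPM with Vehicle, also without overlap and led by Vehicle 1, with a log2 change of -1.53 ± 0.47 (SE, edgeR adjusted p = 0.552). Cyp2e1 was at 270.1, 309 and 159 CPM with SH045 and 1078, 758 and 243 CPM with Vehicle, which overlapped through Vehicle 3, at -1.58 ± 0.63 (SE, edgeR adjusted p = 0.579).

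Slc7a8 was at 145, 138 and 93.7 CPM with SH045 and 54.5, 55.4 and 62.8 CPM with Vehicle in these cells, without overlap, with a log2 change of 1.07 ± 0.21 (SE, edgeR adjusted p = 0.361). It stayed uncalled in 17 of 20 alternatives. DESeq2 (adjusted p = 0.0294), no low-count filter and the replicate number as a block each gave a call. Kap was called lower in 4 of 20, these same settings (adjusted p = 0.0498 by DESeq2) and without Vehicle 3. Cyp4b1 and Cyp2e1 were each called lower with the replicate number as a block (edgeR adjusted p = 1.95e-05 and 0.0139) and without Vehicle 3 (0.0272 and 0.0127). Slc7a13 was called lower without Vehicle 3 (edgeR adjusted p = 0.00971). With the block 0.339% of all genes tested were called, and without Vehicle 3 0.523%. Slc5a12 was at 345, 289.9 and 306 CPM with SH045 and 213, 181 and 156 CPM with Vehicle, without overlap, at 0.68 ± 0.18 (SE, edgeR adjusted p = 0.503). Spp2, with its libraries as above, overlapped, at 0.47 ± 0.27 (SE, edgeR adjusted p = 0.633). In all, 6 of the 35 genes had groups that did not overlap, as had 14.1% of all genes tested. With SH045, 4 were higher (Slc4a4, Slc5a12, Slc7a7 and Slc7a8) and 2 lower (Cyp4b1 and Slc7a13), none of them called in the unchanged fit. The 4 are genes higher in cluster 9 and the 2 genes higher in cluster 12. Cluster 12 gave 20.9, 14.5, 15.3, 38.4, 29, 14.5% of the Havcr1-negative cells of SH045 1 to 3 and Vehicle 1 to 3. The part of cluster 12 in these values was not tested. Within cluster 12 Slc7a13 was at 463, 417 and 671 CPM with SH045 and 1073, 739 and 629 CPM with Vehicle, with overlap. Slc5a12 within cluster 9 was at 425, 385 and 372 CPM with SH045 and 341, 246 and 224 CPM with Vehicle, without overlap. These 2 genes were picked after their values were seen, and the rest of the 6 are not given by cluster.

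In Havcr1-positive cells 1 of 35 genes was called, against 0.335% of 10145 genes, 0.0887% higher and 0.246% lower. Slc7a13 fell there, by 1.64 ± 0.31 (log2 units, SE, edgeR adjusted p = 0.0457). Its values were the 3 SH045 libraries at 19.9, 16.1 and 14.7 CPM, below the 3 Vehicle libraries at 72.6, 48.4 and 28.5 CPM. The call was lost without SH045 1, SH045 2, SH045 3 or Vehicle 2, and without the barcodes shared by SH045 1 and SH045 2. Over 20 alternatives it was kept in 8, with adjusted p from 2.66e-09 to 0.288 and the log2 change below 0 in each. Kap, at 2658, 1385 and 2931 CPM with SH045 and 5672, 4443 and 3539 CPM with Vehicle, did not overlap either and had a log2 change of -1.07 ± 0.30 (SE, edgeR adjusted p = 0.158). Kap was called lower by DESeq2 (adjusted p = 0.00175) and with no low-count filter (edgeR adjusted p = 3.69e-06). In these 2 settings 1.68% and 1.55% of all genes tested were called. Gatm had the highest value, 0.71 ± 0.41 (SE, edgeR adjusted p = 0.469), at 302, 264 and 147 CPM with SH045 and 109, 189 and 97.6 CPM with Vehicle, with overlap. Cyp2e1, at 155, 129 and 67.2 CPM with SH045 and 359, 359 and 121 CPM with Vehicle, and Cyp4b1, at 149, 109.9 and 115 CPM with SH045 and 341, 366 and 114 CPM with Vehicle, had values of -1.37 ± 0.59 (SE, edgeR adjusted p = 0.373) and -1.25 ± 0.53 (SE, edgeR adjusted p = 0.36) and overlapped. Cyp2e1 was called lower with the replicate number as a block and with cells thinned to 2000 UMIs (edgeR adjusted p = 0.00209 and 0.00191). Cyp4b1 was called lower without Vehicle 3 (edgeR adjusted p = 1.2e-05). Cubn, higher with SH045, and Keg1, lower, were the other 2 genes without overlap, neither of them called. That made 4 of 35 genes without overlap, where 23.1% of all genes tested had none.

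**Figure D4:**
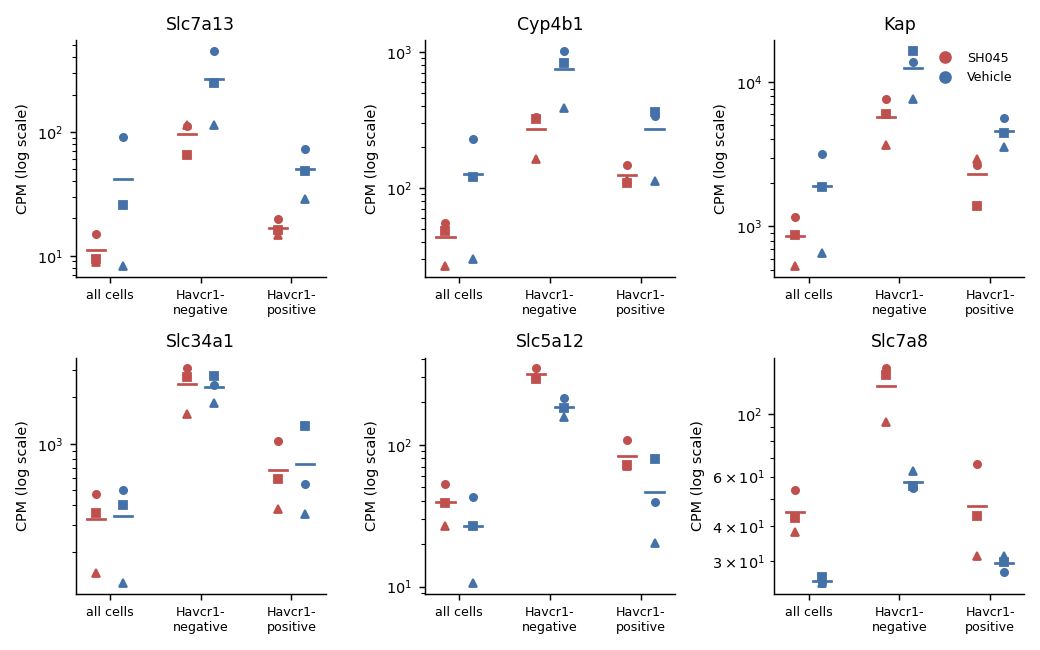
Levels of 6 of the genes in CPM (vertical axes, log scale) over all cells and in Havcr1-negative and Havcr1-positive proximal cells (horizontal axes). Points are libraries, with circles, squares and triangles for replicates 1, 2 and 3, red for SH045 and blue for Vehicle, and bars are group means. Slc7a8 over all cells lies between 38.2 and 53.8 CPM with SH045, above the 3 Vehicle libraries.

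The Havcr1 difference itself was seen in each treatment group. In the SH045 libraries alone 30 of 35 genes were called, all lower, where 24.3% of genes were called, 12% higher and 12.3% lower. In the Vehicle libraries alone 32 were called, all lower, where 21.4% were, 9.96% higher and 11.5% lower. The difference of the 2 effects was called for 0 of 35 genes by edgeR, where 0.0101% of 9920 genes were called. At an unadjusted p under 0.05 there were 6, without a share of all genes at that cut to judge it by. Slc22a8 had the largest difference, -1.14 ± 0.33 (SE, edgeR adjusted p = 0.879), with a fall of 2.65 ± 0.19 (adjusted p = 1.72e-16) in the SH045 and 1.50 ± 0.21 (adjusted p = 0.000618) in the Vehicle libraries (SE, edgeR). Adjusted p-values of this size leave the difference unresolved and do not show that the effects were alike.

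In macrophages 1 of 30 genes tested was called between the groups, against 13.3% of 11755 genes, 6.67% higher and 6.58% lower. Cyp2e1 fell there by 2.02 ± 0.56 (log2 units, SE, edgeR adjusted p = 0.0341), at 1.58, 1.84 and 0.586 CPM with SH045 and 7.14, 5.34 and 1.86 CPM with Vehicle. These values rest on 132 UMIs in 9698 cells and lie at 0.836% of the proximal level. Over all cells Cyp2e1 was at 46.8, 47.6 and 26.8 CPM with SH045 and 236, 107 and 21.9 CPM with Vehicle, also highest in Vehicle 1 and Vehicle 2, and its part in the macrophage values was not tested. The call was lost without SH045 1, SH045 3, Vehicle 1 or Vehicle 2 and with doublets kept, and the adjusted p ran from 8.07e-05 to 0.147 over 15 alternatives. The next lowest values were those of Acy3, -1.55 ± 0.66 (SE, edgeR adjusted p = 0.182), and Cyp4b1, -1.51 ± 0.70 (SE, edgeR adjusted p = 0.205), at 6.07, 2.76 and 1.17 CPM with SH045 and 12.6, 7.89 and 3.81 CPM with Vehicle and 5.01, 2.02 and 0.586 CPM with SH045 and 9.41, 5.22 and 3.03 CPM with Vehicle, both with overlap. The highest values were those of Slc13a3, 0.49 ± 0.18 (SE, edgeR adjusted p = 0.0706), and Slc7a8, 0.44 ± 0.15 (SE, edgeR adjusted p = 0.0603), without overlap between the groups, and of Spp2, 0.44 ± 0.54 (SE, edgeR adjusted p = 0.626), with overlap. Slc13a3 was at 28.5, 21.3 and 24.6 CPM with SH045 and 13.4, 13.3 and 19.9 CPM with Vehicle, Slc7a8 at 48.5, 31.2 and 40.6 CPM with SH045 and 22.9, 28.3 and 27.2 CPM with Vehicle and Spp2 at 3.96, 2.39 and 0.586 CPM with SH045 and 1.52, 1.51 and 1.17 CPM with Vehicle, and Gatm, with its libraries given above, at 0.18 ± 0.13 (SE, edgeR adjusted p = 0.378). In macrophages 3 of the 30 genes tested had groups without overlap, as had 37.8% of all genes tested.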

How the data were processed

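Single-cell RNA libraries of 6 obstructed kidneys, 3 per group, were analysed. Per the labels' protocols, cells were captured on Singleron GEXSCOPE chips with oligo-dT beads carrying UMIs, and per the submitters' processing notes the build was mm10. The deposited matrices hold raw UMI counts per gene and barcode from the authors. Aligner, counter, annotation and handling of reads shared between genes are not given in the sources used here.

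Barcodes with at least 200 genes and at most 50% mitochondrial UMIs were kept (23578 of 25978), and the top 5% of Scrublet scores in each library were removed as doublets. Cells were clustered with scanpy 1.11.5 (2000 variable genes, 30 components, 15 neighbours, Leiden resolution 1), and clusters were named from marker lists. Of the cells, 1164 stayed unnamed. Counts were summed per library and class and tested with edgeR 4.0.16 (quasi-likelihood, TMM, filterByExpr, R 4.3.3), Benjamini-Hochberg adjusted over all genes tested, with the library as a block between Havcr1 classes. The SE given with edgeR values was derived from the test, as the absolute log2 change divided by the square root of its F statistic. A class compared between treatments needed 20 cells per library, and the comparison of Havcr1 classes within proximal-like clusters was fitted with all 6 libraries although SH045 2 and Vehicle 3 had 18 Havcr1-positive cells each. The scripts were tested on simulated data. Alternatives used DESeq2 1.42.0, other filters, thresholds and clusterings, and left out each library in turn. Any gene called may be named. Values in every library are given for the 3 largest falls and rises by log2 change in a comparison, for the first gene of each role, and for Slc34a1, Lrp2, Kap, Slc5a2, Slc7a13, Miox and Gpx3. From other lists, the 2 genes with the smallest p may be named. Other genes, and values by cluster or cell class, were chosen after they were seen. The 35 genes, the lists and the markers were chosen with earlier results of these data known.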

Additional observations from a re-analysis of the deposited data

Results flagged for a closer look

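Barcodes over the mitochondrial limit, which entered only the alternative with no mitochondrial limit, held a larger share of the UMIs of the 35 genes in the SH045 libraries than in the Vehicle libraries. They held 6.30% of the set's UMIs in SH045 1, 8.04% in SH045 2 and 7.21% in SH045 3, against 0.977%, 4.32% and 4.70% in Vehicle 1, 2 and 3. The SH045 libraries had more such barcodes, 252, 255 and 227 against 74, 146 and 94. Within these barcodes the set made up 6.31, 7.26 and 4.13% of the non-mitochondrial UMIs with SH045 and 6.79, 7.82 and 6.86% with Vehicle, and these ranges overlapped.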

How the results depend on the processing

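Percentages in parentheses are the share of all genes called in the same fit. The comparison of Havcr1 classes called 33 of 35 genes, and 19 within proximal-like clusters (7.45%) and 16 within the injured-tubule-like cluster alone (8.83%), 29 at a mitochondrial limit of 20% (27.3%) and 31 with no replicate block (26.5%), where Cyp2e1 and Cyp4b1 were not called. Within the injured-like cluster Kap (2.91), Ggt1 (0.98), Slc27a2 (0.86), Slc3a1 (0.38), Keg1 (0.39) and Cyp2e1 (0.19) changed sign, as did Slc3a1 (0.00257) and Cyp2e1 (0.19) within proximal-like clusters. Slc13a1 went to -0.00168 with DESeq2, -0.0015 with its size factors and -0.0695 without the low-mitochondrial cells, and ran from -0.0683 to 0.0957 leaving out 1 library, below 0 without Vehicle 1 or Vehicle 3. Of 795 values for single genes in this comparison, 751 kept direction and call.

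Between SH045 and Vehicle, all-cell sums called 1 gene with DESeq2, with no low-count filter, with no mitochondrial limit, with doublets kept, without the low-mitochondrial cells and without shared barcodes (4.14 to 11.6%), Slc7a8 in each. Havcr1-negative cells called 2 with DESeq2 (0.27%) and 2 with no low-count filter (0.437%), and 0 to 5 leaving out 1 library (0 to 0.523%). Havcr1-positive cells called 3 with DESeq2 (1.68%), 6 with no low-count filter (1.55%), 0 to 5 leaving out 1 library (0.124 to 0.748%), and 0 with a mitochondrial limit of 20% or none, doublets kept, thresholds of 1 or 3 UMIs, without the low-mitochondrial cells and without shared barcodes (0.122 to 1.2%). Macrophages called 2 with DESeq2 (15.2%), 4 with no low-count filter (7.84%), 2 at Leiden resolution 2.0 and at a mitochondrial limit of 20% or none (13.1 to 13.9%), 0 with doublets kept (13.2%), and 0 to 5 leaving out 1 library (3.2 to 17.1%). Leaving out 1 library, Slc4a4 ran from -0.0685 to 0.504 and Slc5a12 from -0.0849 to 0.831 over all cells, and Spp2 from -0.0784 to 0.971 in macrophages. The share of Havcr1-positive cells, SH045 minus Vehicle, was -1.62 percentage points and went to 1.197 at a mitochondrial limit of 20%, -7.06 with no limit and -7.51 within proximal-like clusters, and from -11.61 to 4.04 leaving out 1 library. The summed level of Havcr1-negative cells was 5.08% with no mitochondrial limit. The cause was not tested for any of these.

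Whether replicate numbers pair the libraries was not settled, with correlations of -0.027 to 0.296 between libraries of the same number. Over all cells, SH045 2 and SH045 3 correlated best with the Vehicle library of their own number (0.204 and 0.296) and SH045 1 did not. In Havcr1-positive cells none did. A check with 3 libraries per group cannot decide this. With the number as a replicate block, 1 gene, Slc22a6, was called over all cells (3.82%), 6 in Havcr1-negative cells (0.339%), 2 in Havcr1-positive cells (0.552%) and 6 in macrophages (12.2%). SH045 against Vehicle was not run in Havcr1-positive cells of proximal-like clusters, where a library had 18 cells. Depth limits genes with few UMIs.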
